A study of Mus musculus with 15 samples.

Results

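Tbx21, Eomes, Bcl6, Prdm1, Batf, Maf, Irf4, Id2 and Zbtb7b encode transcription regulators that direct the choice between helper T cell subsets. These 9 genes were picked by name for that role, not by any value measured here, though with earlier results of these data known. They are among 49550 genes placed on the chromosomes of the RefSeq table for GRCm38.p6, of which 21627 are protein-coding. Their chromatin was read from EL4 cells, a mouse T lymphocyte lymphoma line from the C57BL/6N strain, with no treatment named in the labels. The data were called intervals from ChIP-seq of H3K4me3, H3K9ac, H3K27ac, H3K27me3 and H3K36me2 and from ATAC-seq, which marks DNA open to a transposase. Each of these 6 sets had 2 replicates, giving 12 lists, and the study describes its replicates as technical, so agreement between them says nothing about separate cultures. All 9 genes share the same 12 libraries, and EL4 is a single tumour line, not a purified helper subset. The input library and the RNA-seq libraries were not used here.

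T-bet, the product of Tbx21, directs the helper program that makes interferon gamma, and the related T-box factor eomesodermin (Eomes) acts mostly in cytotoxic and memory T cells. Bcl6 is the repressor that defines follicular helper cells, and Blimp-1, the product of Prdm1, is the repressor that opposes it. Batf and Irf4 bind DNA together downstream of the T cell receptor, Maf drives cytokine genes such as those of IL-4 and IL-10, Id2 blocks the E proteins, and Zbtb7b encodes ThPOK, which commits thymocytes to the CD4 lineage. In chromatin, H3K4me3 with H3K9ac and H3K27ac is the usual state of active promoters, H3K27me3 is laid down by Polycomb repressive complexes, and promoters with H3K4me3 and H3K27me3 together are called poised.

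An interval was counted at a gene when it shared at least 1 bp with the window of the gene, which is the RefSeq span plus 20 kb on each side, and a mark was called present when both replicates held such an interval. A gene was called active with H3K4me3 and either acetylation but no H3K27me3, poised with H3K4me3 and H3K27me3, H3K27me3 only without H3K4me3, and unmarked with none of H3K4me3, the acetylations or H3K27me3. The same calls were made in a start window from 3 kb upstream to 2 kb downstream of each gene start listed by RefSeq. The table lists 1 start for 6 of the genes and 2 for Bcl6 and Zbtb7b. It lists no start for Maf, so both ends of the Maf span were used and its strand is not given. Only 54.1% of all genes had a listed start. For every gene without one, windows from 3 kb outside to 2 kb inside the span were used at both ends. The start-window shares over all genes therefore mix these 2 kinds of window. The windows were 42.3 to 131.0 kb long with a median of 57.3 kb, the same as the median over protein-coding genes (57.3 kb) and longer than that over all genes (46.0 kb). The lists give no scores or read counts, so the depth behind an interval is unknown and an absent interval says only that none passed the threshold of the authors. No test was made, and both replicate values are given in place of an error.

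The first bases of these genes are shown for 4 of them, because Tbx21 and Eomes carried no called narrow mark there and Bcl6 and Prdm1 carried every active mark. Each line holds 300 bases from RefSeq (GRCm38.p6), 250 before and 50 after the listed start, written 5′ to 3′ on the strand of the gene with each CG dinucleotide in capitals. They lie at chr11:97115282-97115581 on the minus strand for Tbx21, chr9:118477939-118478238 on the plus strand for Eomes, chr16:23988803-23989102 on the minus strand for the first start of Bcl6, and chr10:44458699-44458998 on the minus strand for Prdm1.
Tbx21: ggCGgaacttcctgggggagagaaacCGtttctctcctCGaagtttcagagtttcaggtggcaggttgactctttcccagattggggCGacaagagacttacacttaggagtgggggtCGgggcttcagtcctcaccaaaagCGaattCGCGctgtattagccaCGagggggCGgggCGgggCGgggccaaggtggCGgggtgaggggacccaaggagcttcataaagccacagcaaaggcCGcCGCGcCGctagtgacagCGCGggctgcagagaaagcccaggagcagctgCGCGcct
Eomes: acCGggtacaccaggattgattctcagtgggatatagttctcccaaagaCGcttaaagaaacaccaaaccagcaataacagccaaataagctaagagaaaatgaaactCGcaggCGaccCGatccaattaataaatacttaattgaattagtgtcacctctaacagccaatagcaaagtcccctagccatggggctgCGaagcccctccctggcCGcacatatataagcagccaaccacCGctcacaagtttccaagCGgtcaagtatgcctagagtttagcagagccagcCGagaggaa
Bcl6: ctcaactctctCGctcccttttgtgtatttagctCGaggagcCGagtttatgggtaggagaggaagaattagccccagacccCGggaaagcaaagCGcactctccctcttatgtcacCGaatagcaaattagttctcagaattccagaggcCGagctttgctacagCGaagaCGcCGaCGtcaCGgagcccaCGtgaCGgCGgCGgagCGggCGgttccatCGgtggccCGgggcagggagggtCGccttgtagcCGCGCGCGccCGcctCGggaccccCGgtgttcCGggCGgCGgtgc
Prdm1: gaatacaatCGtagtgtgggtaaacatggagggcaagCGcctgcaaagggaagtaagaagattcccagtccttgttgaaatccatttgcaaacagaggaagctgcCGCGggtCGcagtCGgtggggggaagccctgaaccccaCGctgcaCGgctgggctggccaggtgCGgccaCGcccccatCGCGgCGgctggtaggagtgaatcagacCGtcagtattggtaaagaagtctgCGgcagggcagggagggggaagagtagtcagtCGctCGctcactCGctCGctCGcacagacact

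The unmarked start of Tbx21 held 21 CG dinucleotides, as many as the marked start of Id2 (21) and about as many as that of Prdm1 (20). Of 32841 RefSeq promoters of this length, 75.2% held fewer than the 21 of Tbx21, and the median was 7. The first start of Bcl6 held 31, more than 89.4% of all promoters, and the start of Eomes held 10, more than 56.5%. Batf held 9, Irf4 11 and the first start of Zbtb7b 8 at starts that were all marked, so the count of CG did not separate the marked starts of these genes from the unmarked ones. Short motifs were searched on both strands, 6 in all, and the Eomes promoter held none of them. GGGCGG, found in 35.7% of all promoters, occurred 3 times each in Tbx21 and at the first start of Zbtb7b, 2 times each in Irf4 and at the first start of Bcl6, and 1 time each in Batf, in Id2 and at the second start of Zbtb7b. TTCNNNGAA, found in 8.3% of all promoters, occurred 1 time at the first and 3 times at the second start of Bcl6. TGANTCA was found in 7.81% of all promoters and 1 time in Prdm1, TATAAA in 13.6% and 1 time in Irf4, and TGTGGT in 16.8%, 2 times in Batf and 1 time at the second start of Zbtb7b. CANNTG, the core read by E proteins, was found in 72.3% of all promoters. It occurred 3 times in Batf, 2 times each in Tbx21, Prdm1 and at the first start of Zbtb7b, and 1 time each at the first start of Bcl6, in Irf4, in Id2 and at the second start of Zbtb7b. Such matches describe the letters of the window and not the binding of any factor.

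As a check of the cell type, all 10 of 10 T cell genes examined (among them Cd3e, Lck and Zap70) held H3K4me3 in their spans in both replicates, against 1 of 6 B cell genes (Pax5) and 2 of 6 myeloid genes (Spi1 and Itgam). Cd79a, Csf1r and Cd14 held none. The windows of Tbx21, Irf4 and Id2 held no other gene of the table, those of Bcl6, Prdm1, Batf, Maf and Eomes held only non-coding neighbours, and that of Zbtb7b held 5 genes, of which 4 were protein-coding.

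All 9 genes had H3K4me3, H3K9ac and H3K27ac within 20 kb in both replicates, and 7 of the 9 had all these marks at the start itself. Within 20 kb, H3K4me3 was called at 9 of 9 against 44.8% of all genes, H3K9ac at 9 against 43.2%, and H3K27ac at 9 against 45.1%. In the start window, H3K4me3 was called at 7 of 9 (27.2% of all genes), as were H3K9ac (26.6%) and H3K27ac (27.3%). Among protein-coding genes the share with H3K4me3 was 62.9% within 20 kb and 46.3% in the start window. ATAC-seq intervals were called within 20 kb at 7 of 9 (41.4% of all genes, 59.4% of protein-coding genes). In the start window they were called at 6 of 9 (23.7% and 41.7%). The genes without ATAC-seq in both replicates were Eomes and Irf4 within 20 kb, and Tbx21, Eomes and Irf4 at the start.

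H3K27me3 stood apart from the active marks, since no interval of it lay in the start window of any of the 9 genes in either replicate (12.2% of all genes had it in both). Within 20 kb H3K27me3 was called at 2 of 9, Batf and Zbtb7b, near the 28.7% of all genes and 30.2% of protein-coding genes. H3K36me2, a mark of broad domains within and between genes, was called within 20 kb at Tbx21, Prdm1, Batf, Irf4, Id2 and Zbtb7b. These were 6 of 9, against 44.6% of all genes and 59.2% of protein-coding genes. In the start window H3K36me2 was called at Batf and Zbtb7b only, 2 of 9 against 21.9% of all genes and 29.0% of protein-coding genes.

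**Figure D1:**
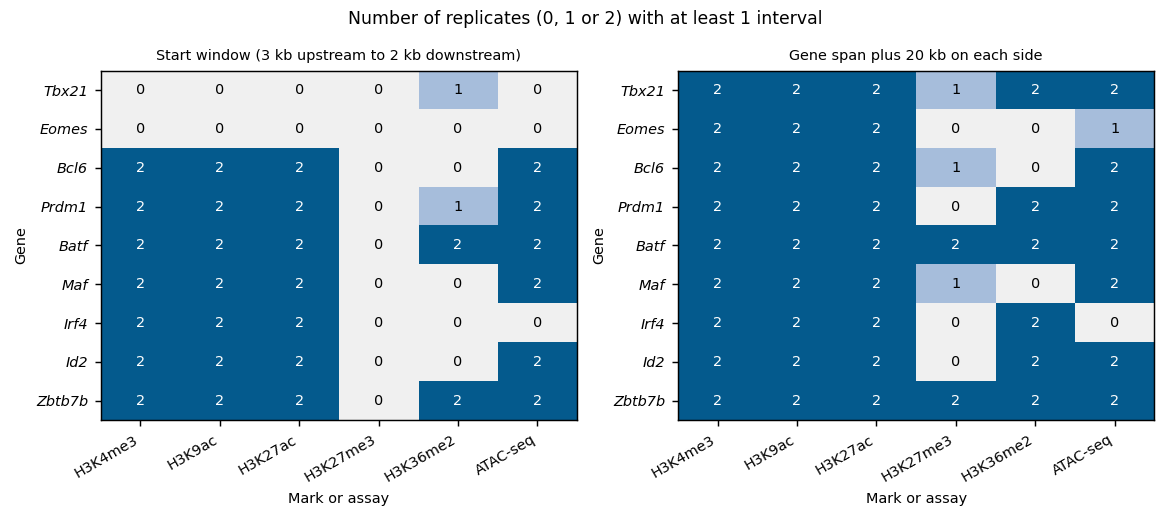
Number of replicates, 0 to 2, with at least 1 interval of each mark or assay at each gene, in the start window (left) and within 20 kb of the gene span (right). The H3K4me3 and acetylation columns are filled for 7 of 9 genes on the left and all 9 on the right, while the H3K27me3 column is empty on the left and filled by both replicates only for Batf and Zbtb7b on the right.

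The calls of state followed from these counts. Within 20 kb, 7 of 9 genes were active (35.0% of all genes, 48.5% of protein-coding genes), 2 were poised (8.95% of all genes, 13.7% of protein-coding genes), and none was H3K27me3 only (19.8% and 16.4%) or unmarked (33.7% and 19.7%). In the start window, 7 of 9 were active (25.9% of all genes, 44.6% of protein-coding genes), none was poised (0.716% and 1.18%) or H3K27me3 only (11.5% and 9.83%), and 2 were unmarked (60.3% and 43.2%). The number of active genes was thus 7 in both windows, but the genes differed: Batf and Zbtb7b were active at the start and poised in the wider window, while Tbx21 and Eomes were active in the wider window and unmarked at the start. H3K4me3 called within 20 kb, with none in the start window in either replicate, was found at these 2 of 9 genes, against 17.4% of all genes.

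The poised calls rested on H3K27me3 that lay far from the H3K4me3. Nowhere in the 9 windows did an H3K4me3 interval share a base pair with an H3K27me3 interval in either replicate, so that with shared bases required 0 of 9 genes were poised, against 0.442% of all genes. Likewise 0 bp of H3K9ac, H3K27ac, ATAC-seq or H3K36me2 lay inside H3K27me3 in these windows. For these pairs the share over all genes was not counted, so the absence may not be particular to the 9 genes. The calls of state from a single replicate differed at 3 genes. Bcl6 and Maf were poised by replicate 1 and active by replicate 2, and Tbx21 was active by replicate 1 and poised by replicate 2. In each of them a single H3K27me3 interval of one replicate made the difference.

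**Figure D2:**
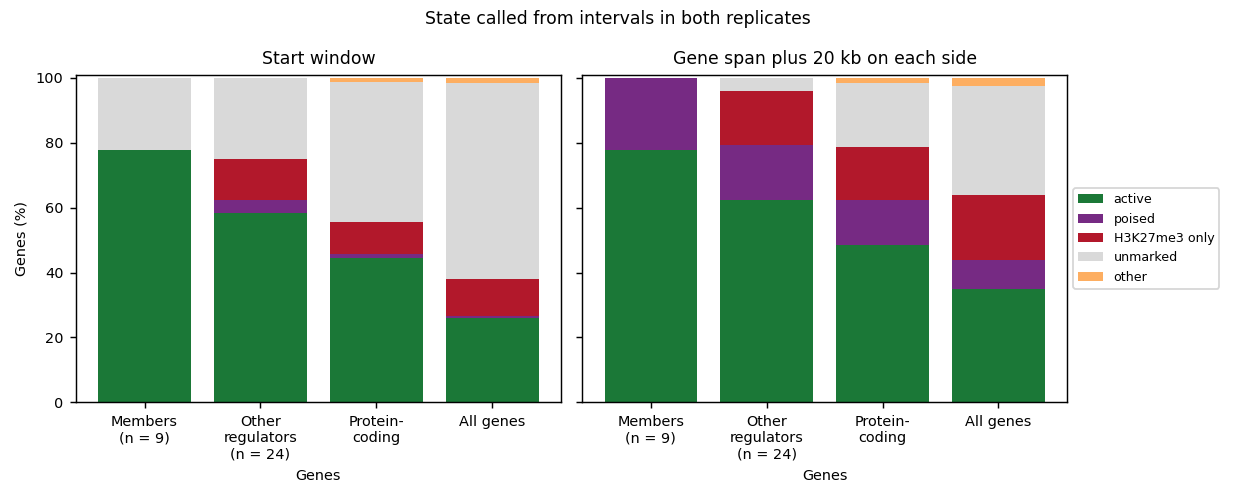
Share of genes (%) in each state, called from intervals in both replicates, for the 9 genes, 24 other regulators of helper subsets, protein-coding genes and all genes, in the start window (left) and within 20 kb of the gene span (right). At the start 7 of the 9 genes are active and 2 unmarked, and within 20 kb 7 are active and 2 poised.

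Tbx21 (chr11:97098007-97115331, minus strand) had the H3K4me3 of its window in a distal block and no called active mark at the promoter. Positions below are in kb from the listed start, negative upstream. No H3K4me3, H3K9ac, H3K27ac or ATAC-seq interval lay in its span or start window in either replicate. The nearest H3K4me3 interval was 2078 bp wide in replicate 1 and 2101 bp in replicate 2, and both began 10.4 kb upstream. H3K9ac (2007 and 2167 bp), H3K27ac (2406 and 2297 bp) and an ATAC-seq interval (257 and 231 bp) lay at the same place, and together with smaller acetylated stretches they formed a site at chr11:97125733-97129609, from -14.28 to -10.40 kb. Both replicates placed these intervals within about the same bounds.

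No annotated gene covered this site in the Tbx21 window, and the nearest one, Tbkbp1, lay 6.56 kb further out. The nearest listed start was that of Tbx21, 10.4 kb away. Which gene the site belongs to was not tested, so the active call of Tbx21 may rest on a neighbour. A further site at -18.66 to -17.72 kb had H3K27ac in both replicates, H3K9ac in replicate 1 and no H3K4me3. A domain of H3K36me2 began at -12.27 kb in both replicates, inside the distal site, and ran outward over Tbkbp1 for 24799 bp in replicate 1 and 23599 bp in replicate 2. At the other end of the gene, replicate 2 alone held 5999 bp of H3K27me3, from 13.13 to 19.13 kb downstream, over the end of the span, while the nearest H3K27me3 of replicate 1 lay 234.0 kb away. Replicate 1 alone held an H3K36me2 interval of 2399 bp that began 1.53 kb downstream of the start.

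Eomes (chr9:118478186-118486132, plus strand) had the least marked window of the 9. Its span and start window held no interval of any of the 12 lists. Within 20 kb it had 2 sites, both at other genes. The nearer one, from 11.35 to 11.83 kb, covered the listed start of the non-coding gene Gm33460. There H3K4me3 was 339 and 279 bp wide in replicates 1 and 2, H3K9ac was called in replicate 1 only (214 bp), and ATAC-seq in replicate 2 only (292 bp).

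The further Eomes site, from 27.57 to 29.29 kb, lay at the span of Golga4, the next protein-coding gene, and crossed the edge of the window. Only 187 and 231 bp of its H3K27ac lay inside the window, and 116 bp of its H3K9ac in replicate 2. The active call of Eomes therefore rested on the chromatin of a neighbour, and with an overlap of 200 bp required in place of 1 bp, H3K27ac was called at 8 of the 9 genes and 6 were active, Eomes no longer among them. No H3K27me3 replaced the active marks at Eomes: the nearest interval lay 699.0 kb from the start in replicate 1 and 954.0 kb in replicate 2. The nearest H3K36me2 lay 45.6 and 35.6 kb away.

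**Figure D3:**
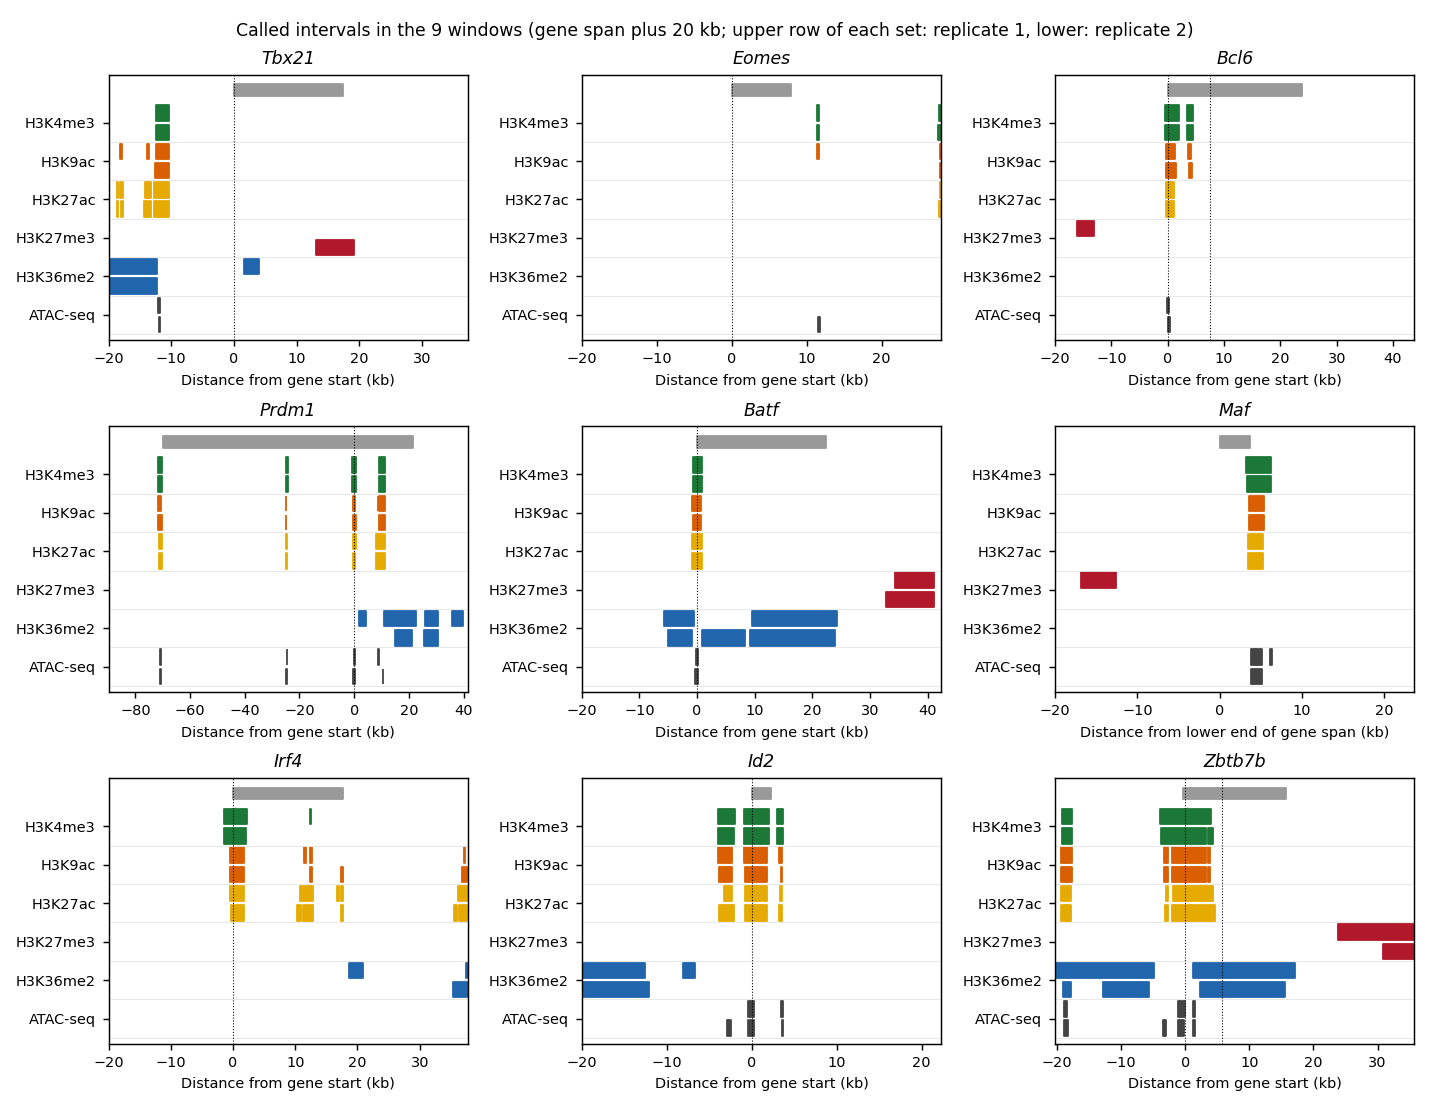
Called intervals of the 6 sets in the window of each gene, with replicate 1 above replicate 2 in every set, plotted against the distance from the listed gene start in kb (for Maf, from the lower end of its span). Grey bars are the RefSeq spans and dotted lines the listed starts. The H3K4me3, acetylation and ATAC-seq intervals of Tbx21 sit more than 10 kb upstream of its start, the Eomes span is empty, and H3K27me3 never lies under the active marks.

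Of the antagonists Bcl6 and Prdm1, both had fully marked starts, and they differed in how many further sites they held. At the first start of Bcl6 (chr16:23965050-23988866, minus strand), H3K4me3 was 2417 and 2425 bp wide, H3K9ac 1682 and 1791 bp, H3K27ac 1524 and 1527 bp, and ATAC-seq 436 and 353 bp. A second site inside the gene, from 3.47 to 4.49 kb, had H3K4me3 (1019 and 993 bp) and H3K9ac (434 and 463 bp) in both replicates, with no H3K27ac and no ATAC-seq. The promoter of the second listed start, further inside the gene, was touched by no interval. H3K27me3 lay in the Bcl6 window in replicate 1 only, 2999 bp from -16.15 to -13.15 kb, and H3K36me2 in neither replicate, the nearest being 140.0 kb downstream in each.

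Prdm1 (chr10:44437174-44528558, minus strand) had 4 sites with H3K4me3, H3K9ac, H3K27ac and ATAC-seq in both replicates, the most of the 9 genes, in the longest of the 9 windows. At the start H3K4me3 was 1496 and 1625 bp wide. The site with the widest acetylation lay inside the gene, from 8.07 to 11.37 kb, where H3K27ac covered 3255 and 3267 bp. ATAC-seq was called there in both replicates but not at the same place, from 8.76 to 9.01 kb in replicate 1 and from 10.38 to 10.58 kb in replicate 2. The others lay at -25.11 to -24.12 kb, inside the span, and at -71.70 to -70.29 kb (chr10:44529037-44530447), 479 bp beyond the upper end of the span. Since Prdm1 is on the minus strand, this upper end is the 5′ end of the annotated gene, and the listed start lies inside the span. At the site beyond the 5′ end, which no annotated gene covered, H3K4me3 was 1338 and 1411 bp wide and ATAC-seq 444 and 452 bp. No H3K27me3 lay in the window, and the nearest was 220.0 and 260.0 kb upstream. H3K36me2 covered 22996 bp of the window in replicate 1 and 11598 bp in replicate 2, all of it in the downstream part.

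Batf and Irf4, whose products bind DNA as partners, both had active starts and differed in their called ATAC-seq and H3K27me3 intervals. At Batf (chr12:85686720-85709087, plus strand), a single compact site from -0.88 to 0.89 kb held H3K4me3 (1653 and 1573 bp), H3K9ac (1533 and 1560 bp), H3K27ac (1674 and 1683 bp) and ATAC-seq (388 and 461 bp). H3K36me2 flanked it on both sides and covered 19998 and 26197 bp of the window, or 32.1 and 42.0%. The H3K27me3 that made the Batf window poised was 6799 bp in replicate 1 and 8199 bp in replicate 2. It began 34.3 and 32.9 kb downstream of the start, beyond the end of the gene, and ended at 41.08 kb in both, where no gene was annotated.

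Irf4 (chr13:30749233-30766981, plus strand) was the exception among the marked starts, having acetylation and wide H3K4me3 without any ATAC-seq interval. Its H3K4me3 interval at the start was 3775 and 3585 bp wide. H3K27ac was called in 8 intervals in replicate 1 and 7 in replicate 2, covering 5771 and 6376 bp, at the start, from 10.34 to 12.87 kb, from 16.77 to 17.74 kb and from 35.57 to 37.70 kb. The site furthest downstream ended 2.58 kb from the neighbour Exoc2. At the last 2 of these sites no H3K4me3 was called, and at the site from 10.34 kb it was called in replicate 1 only (244 bp). The nearest ATAC-seq interval lay 204.0 kb upstream of the Irf4 start in replicate 1 and 763.0 kb upstream in replicate 2. Of 12827 genes active in the start window, 289 (2.25%) had no ATAC-seq interval in either replicate within 20 kb. The 12827 genes included 7 members, and Irf4 was the only 1 of these members without such an interval. The cause was not tested. The nearest H3K27me3 lay 244.0 and 256.0 kb upstream. H3K36me2 covered 2780 and 2381 bp of the window, all beyond the end of the gene. In replicate 2 it was 1 interval that crossed the edge of the window and reached Exoc2.

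At Maf (chr8:115703253-115706894), the marks gathered at the upper end of the span. H3K4me3 there covered 3043 bp in replicate 1 and 2873 bp in replicate 2, each in 2 intervals, H3K9ac 1847 and 1848 bp, and H3K27ac 1826 and 1745 bp. ATAC-seq intervals covered 1524 and 1328 bp, or 3.49 and 3.04% of the window, beside 3.08 and 3.98% at Zbtb7b, 2.18 and 3.26% at Id2 and 0.403 to 1.22% at Tbx21, Bcl6, Prdm1 and Batf. Replicate 1 held 4199 bp of H3K27me3 at chr8:115686401-115690599, on the other side of the gene, and the nearest H3K27me3 of replicate 2 lay 178.0 kb from the upper end. No H3K36me2 lay in the window.

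Id2 (chr12:25093799-25096092, minus strand), the shortest of the 9 genes, had 3 sites with H3K4me3, H3K9ac and H3K27ac in both replicates within 4 kb of its start. The site at the start had 2942 and 2984 bp of H3K4me3, the upstream one, from -3.99 to -1.97 kb, 1978 and 1932 bp, and the downstream one, from 2.94 to 3.71 kb, 744 and 729 bp. ATAC-seq was called in both replicates at the start (720 and 709 bp) and downstream (200 and 203 bp), and upstream in replicate 2 only (467 bp). The nearest H3K27me3 lay 408.0 and 409.0 kb downstream. H3K36me2 covered 8891 and 7892 bp of the window, upstream of these sites.

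Zbtb7b (chr3:89377644-89393673, minus strand) had the widest H3K4me3 of the 9 genes, and 1 of the widest in the cell line. The interval over its first start was 7949 bp in replicate 1, rank 23 of 18577 intervals by width, and 6956 bp in replicate 2, rank 35 of 18127. Both acetylations covered most of the same stretch, with 5248 bp in the widest H3K9ac interval of replicate 1 and 4071 and 3988 bp in the widest H3K27ac intervals. ATAC-seq intervals of 1002 and 949 bp lay just upstream of the start. The promoter of the second listed start was touched by none of these sets, and in both replicates it lay inside H3K36me2, which covered 31472 bp (56.2%) and 21597 bp (38.5%) of the window.

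A second Zbtb7b site, from -19.42 to -17.66 kb, covered the start of the neighbour Flad1. H3K27me3 lay on the other side, over the sperm membrane protein genes Dcst1 and Dcst2, in an interval of 13999 bp in replicate 1 and 7199 bp in replicate 2. These began 23.8 and 30.8 kb downstream of the Zbtb7b start and crossed the edge of the window, which held 11956 and 4956 bp of them. The poised call of Zbtb7b thus came from an interval at neighbouring genes.

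**Figure D4:**
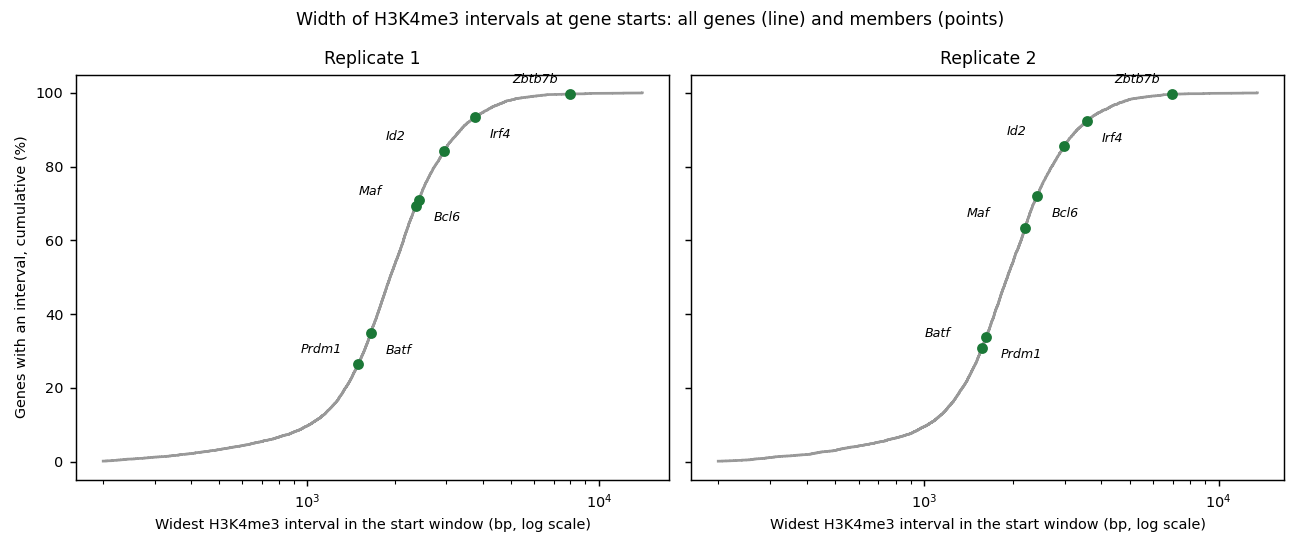
Cumulative share (%) of genes by the width in bp, on a log scale, of the widest H3K4me3 interval in the start window, over the 13578 genes of replicate 1 (left) and the 13521 of replicate 2 (right) with such an interval. Points are the 7 of 9 genes with one, from Prdm1 and Batf below the median to Irf4 and Zbtb7b near the top.

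Set against other genes with H3K4me3 in the start window, the 7 marked genes covered much of the range of widths. The median of the widest such interval was 1925 bp over 13578 genes in replicate 1 and 1918 bp over 13521 genes in replicate 2, where neighbouring genes may share an interval. Prdm1 and Batf were narrower than the median, at 0.777 and 0.847 times it for Prdm1 and 0.859 and 0.82 times for Batf. Maf (1.23 and 1.15 times), Bcl6 (1.26 and 1.26), Id2 (1.53 and 1.56) and Irf4 (1.96 and 1.87) were wider, and Zbtb7b was 4.13 and 3.63 times the median, with 99.7 and 99.6% of these genes narrower. This order was the same in both replicates except between Prdm1 and Batf, which changed places.

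Joining H3K4me3, H3K9ac, H3K27ac and ATAC-seq intervals less than 500 bp apart gave 21 sites in the 9 windows. In 15 of them H3K4me3, H3K9ac and H3K27ac were called in both replicates, and 12 of the 15 also had ATAC-seq in both, that of Prdm1 from 8.07 kb at different places. Of the 15, 8 reached a start window, 2 lay in a gene span (both at Prdm1) and 5 lay outside, at Tbx21, Eomes, Prdm1, Id2 and Zbtb7b. The outside site of Prdm1 lay 479 bp beyond the 5′ end of its span. H3K27ac in both replicates without H3K4me3 in either was found at 3 sites, 1 at Tbx21 and 2 at Irf4. Within the windows 96.7 and 97.0% of ATAC-seq bases lay in H3K4me3 and 88.5 and 91.9% of H3K9ac bases in H3K27ac, while 15.1 and 8.61% of H3K4me3 bases lay in H3K36me2.

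**Figure D5:**
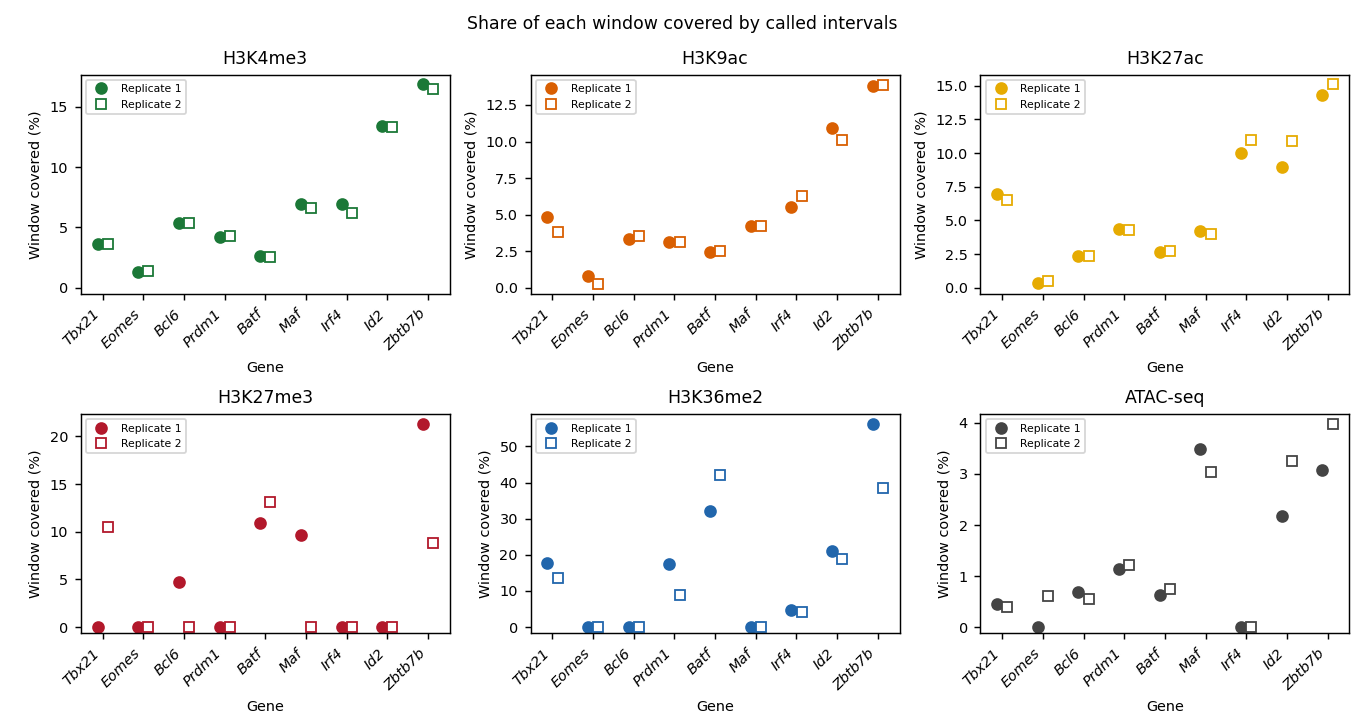
Share (%) of each window covered by called intervals of each set, with replicate 1 as filled circles and replicate 2 as open squares. The replicates nearly coincide for H3K4me3, while H3K27me3 is above 0 in both replicates only at Batf and Zbtb7b and differs at Tbx21, Bcl6 and Maf.

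Measured as base pairs covered in both replicates over base pairs covered in either, the replicates overlapped in the 9 windows by 0.936 for H3K4me3, 0.843 for H3K9ac, 0.859 for H3K27ac, 0.622 for H3K36me2 and 0.668 for ATAC-seq, near the values over whole lists (0.922, 0.868, 0.865, 0.568 and 0.66). For H3K27me3 the overlap was 0.352, against 0.498 over whole lists, so this mark was the least repeatable one at these genes. H3K4me3 covered from 1.27 and 1.36% of the window at Eomes to 16.9 and 16.5% at Zbtb7b. Id2 came second with 13.4 and 13.3%, and Irf4 (6.96 and 6.21%) and Maf (6.97 and 6.58%) could not be ranked against each other, since their values overlapped. H3K27ac gave Zbtb7b first (14.3 and 15.1%) and Eomes last (0.39 and 0.482%), and the values of Id2 (8.96 and 10.9%) lay on either side of that of Irf4 in replicate 1 (9.99%).

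Among 24 other regulators of helper subsets, 15 were active within 20 kb, 4 poised (Rora, Stat4, Runx3 and Nfil3), 4 H3K27me3 only (among them Ahr and Hlx) and 1 unmarked (Batf3). In the start window 14 were active, 1 poised (Nfil3), 3 H3K27me3 only (among them Stat4 and Ahr) and 6 unmarked. H3K27me3 at the start without H3K4me3 thus occurred in this list, for example at Stat4, which carries the signal of IL-12, and at none of the 9 genes. Gata3, which directs the IL-4 program, was active in both windows, and Foxp3, the factor of regulatory T cells, and Tox2 shared with Tbx21 and Eomes an unmarked start in an active window.

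The gene of this list most like each of the 9 was the one with the smallest mean difference in the percent of window covered over the 12 lists. Irf4 was nearest to Ikzf2 (1.29 percentage points), Maf to Id3 (1.49), Eomes to Foxp3 (1.52), Bcl6 to Id3 (2.17), Id2 to Bhlhe40 (2.34), Prdm1 to Batf3 (2.71), Batf to Rora (3.31), Tbx21 to Batf3 (3.58) and Zbtb7b to Gata3 (4.37). The broad H3K27me3 and H3K36me2 intervals weigh most in this measure, and Batf3, the nearest to Prdm1 and Tbx21, held no H3K4me3 within 20 kb.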

How the data were processed

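EL4 chromatin was profiled by ChIP-seq of 5 marks and ATAC-seq, 2 replicates each. According to the methods and the submitters' processing notes (GRCm38), the authors aligned reads with STAR 2.5, treated duplicates with Picard, and used Epic for the broad marks and macs2 for the other sets. The deposited lists hold the chromosome, start and end of each interval per replicate, with no score, count or normalization, so depth and precision per interval are unknown. The methods say that reads on the sex chromosomes were discarded, yet the lists hold intervals on chromosome X.

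Intervals were matched to RefSeq windows (GRCm38.p6) with Python 3.11.15, numpy 2.4.6 and pandas 2.3.3, after a check on simulated intervals. Against bedtools 2.31.1, 0 of 49550 windows differed in any of 12 lists. The genes and lists were chosen with earlier results of these data known. All 9 members are named, with the most similar of 24 other regulators for each and neighbours only where an interval lay at them. Promoters shown were the first 2 of each state at the start. The joining of intervals within 500 bp, the comparison of widths and the check of ATAC-seq at active starts were chosen after the data were examined. Motifs were searched on both strands.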

Additional observations from a re-analysis of the deposited data

How the results depend on the processing

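The lists hold no depth, the replicates are technical, and windows of 20 kb take in neighbours, so the calls depend on the window and on how many replicates must agree. Of 91 values recomputed under other settings, 72 stayed within 1.5 times and 19 moved. This compares counts and not the genes behind them, and a 0 that stayed 0 scored as unmoved. The 7 members active within 20 kb were again 7 with no flank, a flank of 5 kb or the start window. In these settings Batf and Zbtb7b took the place of Tbx21 and Eomes. With an interval in 1 of the 2 replicates enough, 4 members were active, 5 poised and 5 had H3K27me3. From a single replicate, 3 to 4 members were poised and 3 to 4 had H3K27me3. With no flank, a flank of 5 kb or the start window, 0 were poised and 0 had H3K27me3, and with shared bases required 0 were poised. Unmarked members numbered 2 with no flank, 1 with 5 kb (Tbx21) and 2 in the start window, against 0 within 20 kb. H3K36me2 was called at 3 members with no flank, 3 with 5 kb and 2 in the start window. With ATAC-seq intervals of at least 500 bp only, 3 members had one in both replicates (Maf, Id2 and Zbtb7b). The cause was not tested, beyond the smaller windows and stricter rules themselves. No paired analysis was possible because the results come from no test.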
